A study of Mus musculus with 6 samples.

Results

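The genes described are the 8 rows of the deposited count table for GABA-A receptor subunits alpha2 to alpha6 and delta (Gabra2, Gabra3, Gabra4, Gabra5, Gabra6 and Gabrd) and for both GABA-B receptor subunits (Gabbr1 and Gabbr2), picked by symbol from 43346 rows. RNA was sequenced from the brains of 3 Kdm6a deficient and 3 wild-type adult male mice of strain C57BL/6. The deficient mice came from crosses of Kdm6a-LoxP females, whose Kdm6a is flanked by sites that Cre recombinase cuts, with males carrying Thy1-Cre, a transgene active mainly in neurons. The wild-type mice were littermates from the same crosses, and the labels do not say which of them carried the transgene or name the substrain or the part of the brain. Kdm6a is an X-linked demethylase of histone H3 lysine 27, and the comparison asked which brain transcripts differ when it is deficient. Libraries held 18542590 to 24531408 counts, the p-values measure the spread between these single brains, and all 8 genes were among the 15030 with enough counts to be tested. Kdm6a itself, in counts scaled to library size (CPM), was lower, at 22.3, 25.2 and 25.2 CPM in deficient mice against 34.5, 35.0 and 34.3 CPM in the wild-type mice (log2 fold change -0.51, SE 0.07, edgeR adjusted p = 0.00780), so its transcript was reduced and not absent. Neuron markers such as Snap25 and Syt1 were abundant in all 6 libraries (summed 8327 to 8578 CPM in deficient and 8482 to 8499 CPM in the wild-type mice), and 6 liver and muscle genes together reached 1.52 to 3.35 CPM in the deficient mice and 1.42 to 1.73 CPM in the wild-type mice.

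GABA is the main inhibitory transmitter of the brain. GABA-A receptors are chloride channels assembled from several subunits, and the alpha subunit sets where a receptor is found and how it answers to benzodiazepines. Receptors in which delta joins alpha4 or alpha6 lie mostly outside synapses and carry a lasting (tonic) inhibition. GABA-B receptors act more slowly through G proteins and need a GABA-binding subunit, Gabbr1, joined to a G protein-coupling subunit, Gabbr2.

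The alpha genes were grouped in advance into a pair of classes, and the positions below were counted for that grouping only. When the coding sequences of the 5 alpha genes were translated and aligned, 35 aligned positions held one amino acid in Gabra2, Gabra3 and Gabra5 and another in Gabra4 and Gabra6. Exactly 1 of these was histidine in the first class and arginine in the second, the exchange known to decide whether classical benzodiazepines bind. The 27 bases around it are shown because this codon is the class boundary used for the shares given further on; capitals mark the codon (GENCODE M21 transcripts on GRCm38, coding strand, 5′ to 3′):
Gabra2: gataccttctttCACaatgggaaaaag
Gabra3: gataccttcttcCACaatggtaaaaaa
Gabra5: gacacgttcttcCACaacggcaagaag
Gabra4: gatactttcttcAGGaatggaaagaaa
Gabra6: gacacttttttcCGGaatgggaaaaag
The codons lie in coding exons on the minus strand, at chr5:71014505-71014507 (Gabra2, exon 5), chrX:72501168-72501170 (Gabra3, exon 5), chr7:57488891-57488893 (Gabra5, exon 5), chr5:71641152-71641154 (Gabra4, exon 4) and chr11:42317647-42317649 (Gabra6, exon 4). Around the codon Gabra3 matched Gabra2 at 24 of 27 bases, Gabra5 and Gabra6 each at 21, and Gabra4 at 19. Over the whole translated sequence Gabra2 was 75.7% identical to Gabra5 and 74.4% to Gabra3, and Gabra4 was 72.6% identical to Gabra6, while pairs across the classes shared 57.8% to 60.0%.

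Across the 8 genes no level passed a false discovery rate (FDR) of 5%. The edgeR quasi-likelihood test called 0 of the 8 members, against 0.0466% of all genes tested (7 of 15030; 0.0133% higher with Kdm6a deficiency and 0.0333% lower). At an unadjusted p under 0.05 it gave 2 of 8, Gabra5 and Gabra6, against 5.86% of all genes. DESeq2 gave 2 and limma-voom 1, and the share over all genes was taken for edgeR only. Of the log2 fold changes 4 were positive and 4 negative, with a median of -0.0046, beside a median of 0.0018 and 50.8% positive over all genes tested. In 3 of 8 members the CPM ranges of the genotypes did not overlap, with Gabra3 and Gabra5 higher and Gabbr2 lower in the deficient mice, against 11.2% of all genes (5.7% higher and 5.49% lower). In whole-tissue RNA, fewer cells of a type and less RNA per cell cannot be told apart.

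**Figure D1:**
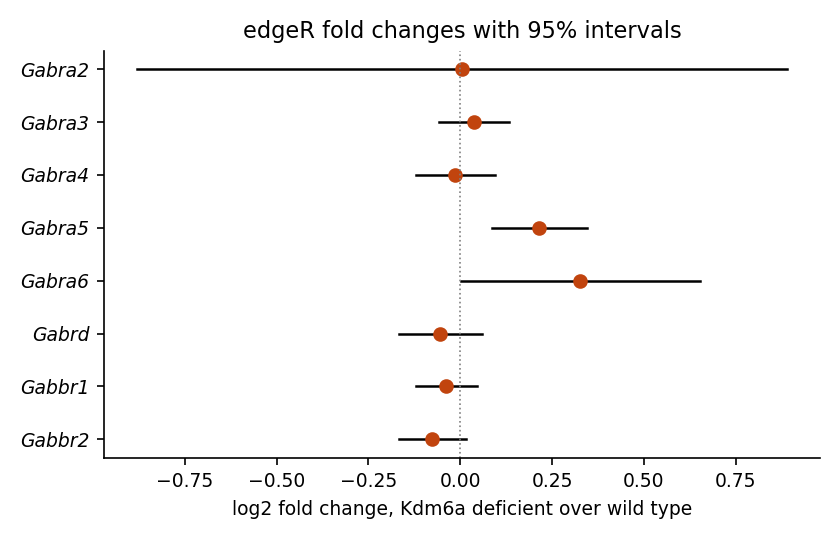
Points are the log2 fold changes of the 8 receptor genes, Kdm6a deficient over wild type, and lines their 95% intervals from edgeR (n = 3 mice a group). The Gabra5 interval runs from 0.09 to 0.34, that of Gabra6 from 0.0016 to 0.65, and that of Gabra2 from -0.88 to 0.89.

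Divided by exon length, so that genes can be set side by side, the GABA-B subunits were the most abundant. Gabbr1 averaged 111 ± 2.44 CPM per kb in deficient and 114 ± 1.95 in wild-type brains (SD, n = 3 each), and Gabbr2 averaged 62.8 ± 1.84 in deficient and 66.2 ± 1.68 in wild-type brains. Next came Gabra6 with 45.9 ± 7.99 CPM per kb in deficient and 36.5 ± 2.31 in wild-type brains, and Gabra3 with 38.9 ± 0.762 in deficient and 37.98 ± 0.179 in wild-type brains. Over the 6 mice the ranges of Gabra6 and Gabra3 overlapped, so their order is not set by these data, whereas no other neighbours in the order overlapped. Gabrd followed at 27.3 ± 0.376 CPM per kb in deficient and 28.3 ± 1.91 in wild-type brains, and Gabra4 at 21.7 ± 1.06 in deficient and 21.9 ± 0.488 in wild-type brains. The lowest were Gabra5 at 13.05 ± 0.461 in deficient and 11.2 ± 0.602 in wild-type brains, and Gabra2 at 8.54 ± 2.33 in deficient and 8.51 ± 2.16 in wild-type brains. These lengths are unions of all annotated exons. With the longest transcript as length instead, Gabra4 (32.1 in deficient and 32.4 CPM per kb in wild-type brains) came above Gabrd (28.97 in deficient and 30.1 in wild-type brains), with overlapping ranges, and the ranges of Gabra5 and Gabra2 overlapped too.

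**Figure D2:**
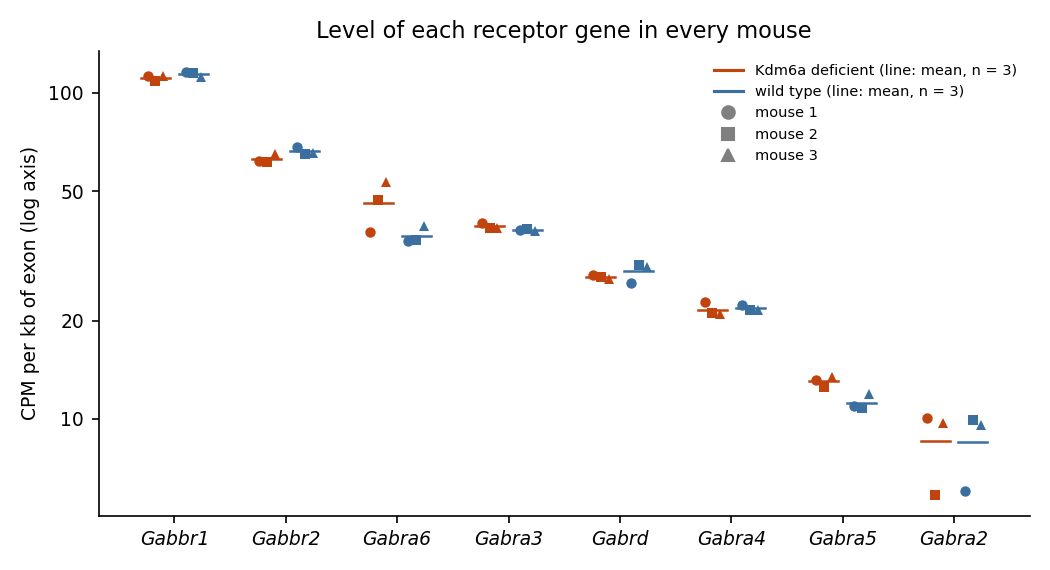
The vertical axis gives CPM per kb of exon on a log scale for each of the 8 genes, with 1 point per mouse and a line at each group mean. Gabra2 stands out by its spread, with deficient mouse 2 (5.86) and wild-type mouse 1 (6.02) far below the other 4 mice (9.55 to 10.1).

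Gabra2 encodes the alpha2 subunit, found at synapses on the axon initial segment of forebrain neurons, and its level differed between mice of the same genotype far more than between the genotypes. The deficient mice 1, 2 and 3 gave 1726, 1103 and 1512 counts, against 1037, 1404 and 1745 counts for wild-type mice 1, 2 and 3. Scaled to library size these were 77.0, 44.8 and 74.0 CPM in the deficient mice, and 46.0, 76.0 and 73.0 CPM in the wild-type mice. Deficient mouse 2 and wild-type mouse 1 were thus low and the other 4 mice high, with nothing in between, and the groups overlapped fully. The highest level was 1.72 times the lowest among deficient mice and 1.65 times among wild-type mice. Of 4400 tested genes within 2-fold of its mean level, 5 had a larger within-genotype SD on the log2 scale. Between the genotypes the log2 fold change came to 0.0045 (SE 0.32, interval -0.88 to 0.89, edgeR adjusted p = 0.999), so a difference inside that interval was not detectable with these 6 mice.

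The same division of the mice was not seen in the other genes of the Gabra2 cluster on chromosome 5. Gabra2 lies at chr5:70957597-71095849 and Gabra4 at chr5:71569749-71658308 (GRCm38), with the gamma1 gene Gabrg1 on one side and the beta1 gene Gabrb1 on the other. Gabra4 had 139, 128 and 128 CPM in the deficient mice and 136, 132 and 131 CPM in the wild-type mice. Gabrb1 had 39.4, 40.6 and 42.4 CPM in the deficient mice and 41.9, 42.3 and 36.6 CPM in the wild-type mice. Gabrg1 had 44.5, 48.5 and 51.7 CPM in the deficient mice and 44.6, 43.2 and 45.8 CPM in the wild-type mice. In none of these 3 genes were deficient mouse 2 and wild-type mouse 1 the lowest of their groups.

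Genes elsewhere had a pattern over the mice close to that of Gabra2. Likeness was taken as the root mean square difference of log2 CPM, each gene centred on its own mean over the 6 mice, against all 15029 other tested genes. The 3 nearest were the collagen gene Col14a1 (chromosome 15) at 0.065, Tpd52l1 (chromosome 10) at 0.070 and the antisense transcript Dhrs13os (chromosome 11) at 0.072, where the root mean square deviation of Gabra2 itself was 0.34. Tpd52l1 had 24.4, 14.6 and 21.3 CPM in the deficient mice and 14.2, 21.8 and 22.9 CPM in the wild-type mice. Col14a1 and Dhrs13os are thin, at 31 to 50 and 6 to 13 counts per library. Likeness over 6 mice is a description and was given no test.

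Among the 10 nearest genes 3 lie on chromosome 5, the chromosome of Gabra2, where 6.24% of the genes compared lie, and 2 on chromosome 10, which holds 4.80%. One of them, Atp10d, which encodes a lipid-flipping ATPase, lies close to the receptor cluster at chr5:72203329-72298775 and is named after its values were seen. It had 5.71, 3.53 and 6.22 CPM in the deficient mice and 3.55, 6.61 and 6.23 CPM in the wild-type mice. Ncoa7 on chromosome 10, also named after its values were seen, had 119, 83.0 and 122 CPM in the deficient mice and 82.4, 118 and 114 CPM in the wild-type mice. As background, the Gabra2 transcript is known to be lower in the C57BL/6J substrain than in related strains. The labels give C57BL/6 and no substrain, so ancestry could not be checked, and its part in the Gabra2 values was not tested.

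**Figure D3:**
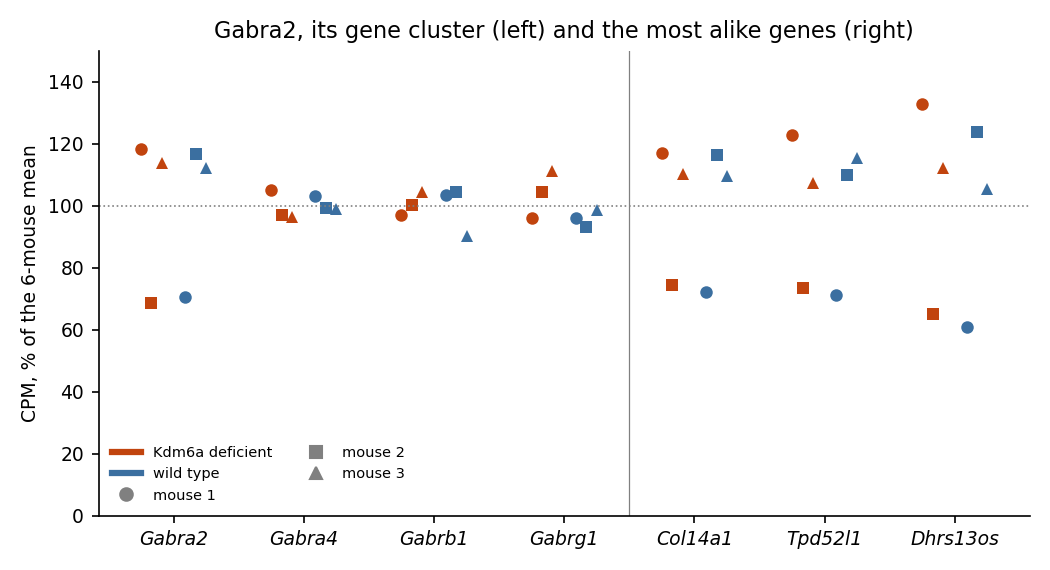
Points give the CPM of each mouse as a percentage of that gene's mean over the 6 mice, for Gabra2 and 3 neighbours in its cluster (left) and the 3 genes nearest to it in pattern (right). Deficient mouse 2 and wild-type mouse 1 lie low for Gabra2 (44.8 and 46.0 CPM) and for the 3 genes on the right, and not for the cluster neighbours.

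Gabra3 encodes alpha3, prominent in the reticular thalamus and in monoamine neurons, and was the steadiest of the 8 genes. It had 156, 151 and 151 CPM in the deficient mice and 149, 150 and 148 CPM in the wild-type mice. Every deficient mouse lay above every wild-type mouse, by little. The log2 fold change was 0.04 (SE 0.04, interval -0.06 to 0.13, edgeR adjusted p = 0.945). Gabra3 lies on the X chromosome, as Kdm6a does, at chrX:72432681-72656848.

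Gabra5 encodes alpha5, a subunit of hippocampal pyramidal neurons that takes part in tonic inhibition, and had the smallest p of the 8 genes. Its level was 39.1, 37.3 and 40.0 CPM in the deficient mice and 32.5, 32.2 and 35.4 CPM in the wild-type mice. All deficient mice lay above all wild-type mice, and their mean was 116% of the wild-type level. The log2 fold change was 0.21 (SE 0.06, interval 0.09 to 0.34), and an unadjusted p of 0.00314 did not survive adjustment over all genes (edgeR adjusted p = 0.530). It stayed between 0.19 and 0.26 when any 1 mouse was left out. In the authors' deposited table, whose fold changes are wild type over deficient, Gabra5 stands at -0.14 (SE 0.06, adjusted p = 0.812), also higher in the deficient mice. DESeq2 run on the same counts gave 0.21 (SE 0.08), deficient over wild type. The fold change and the SE of the authors' deposited table are both smaller by a like factor, so the sizes are not on the same scale.

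The summed markers of the hippocampus were lower in the deficient mice, unlike Gabra5, and single markers went both ways. The 9 listed hippocampus and dentate gyrus markers, led by Wfs1, Neurod2 and Prox1, summed to 291 to 313 CPM in the deficient mice and 315 to 319 CPM in the wild-type mice, and all 9 were detected. The log2 fold change was positive in 2 of them and negative in 7 (median -0.04), and edgeR called none at 5% FDR (1 at an unadjusted p under 0.05). Their part in the Gabra5 values was not tested. Gabra5 lies at chr7:57407672-57510059 and shares 148 exon bases with opposite-strand exons. No source used here gives the strand setting of the counting, so reads of those bases cannot be assigned.

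Gabra4 encodes alpha4, a partner of delta in thalamus and dentate gyrus, and its log2 fold change was -0.01 (SE 0.05, interval -0.12 to 0.09, edgeR adjusted p = 0.990). The CPM ranges of the groups overlapped. It lies head to head with Gabrb1 on the opposite strand and shares 46 exon bases with it.

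Gabra6 encodes alpha6, made in the brain chiefly by granule cells of the cerebellum, and had the largest mean difference of the 8 genes. Reads numbered 2087, 2873 and 2709 for deficient mice 1, 2 and 3, against 1967, 1622 and 2331 for wild-type mice 1, 2 and 3. Its level was 93.1, 117 and 133 CPM in the deficient mice, and 87.3, 87.8 and 97.5 CPM in the wild-type mice. Deficient mice 2 and 3 stood above every wild-type mouse, and deficient mouse 1 lay within the wild-type range. The log2 fold change was 0.33 (SE 0.13, interval 0.0016 to 0.65, unadjusted p = 0.0492, edgeR adjusted p = 0.850), a level of 125% of wild type. Without deficient mouse 1 it was 0.45 (SE 0.07) and passed 5% FDR (edgeR adjusted p = 0.0350). Without the other mice in turn it ran down to 0.21 and did not pass. Gabra6 lies at chr11:42306437-42321072 and shares no exon bases with another gene on the opposite strand.

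The summed granule cell markers were also highest in deficient mice 2 and 3, though not every marker was. The 14 listed markers, led by Cbln3, Cbln1 and Grm4 and all detected, summed to 1036, 1221 and 1227 CPM in deficient mice 1, 2 and 3 and to 1008, 1081 and 1069 CPM in the wild-type mice 1, 2 and 3. The log2 fold change was positive in 12 of these 14 genes and negative in 2 (median 0.15). None passed 5% FDR by edgeR, and 8 had an unadjusted p under 0.05, against 5.86% of all genes. For the leading marker Cbln3 the log2 fold change was 0.0047 (SE 0.13), with 247 CPM in deficient mouse 2 and 263 CPM in wild-type mouse 3. Markers of Purkinje cells, the output neurons of the cerebellar cortex, summed to 1913, 2059 and 2307 CPM in the deficient mice and 1939, 2219 and 2042 CPM in the wild-type mice. Set against the summed granule cell markers, Gabra6 had a log2 ratio of -3.48, -3.39 and -3.21 in the deficient mice and -3.53, -3.62 and -3.45 in the wild-type mice. The difference was 0.18 on the log2 scale (exact permutation test, two-sided p = 0.20), and deficient mouse 1 lay within the wild-type range. Without deficient mouse 3 the difference was 0.10. How much cerebellum each sample held was not measured, and its part in the Gabra6 values was not tested.

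Gabrd encodes delta, which joins alpha6 in cerebellar granule cells and alpha4 in thalamus and dentate gyrus. Its level was 79.5, 78.5 and 77.3 CPM in the deficient mice and 75.1, 85.1 and 84.1 CPM in the wild-type mice. The deficient mice lay inside the wild-type range, with a log2 fold change of -0.05 (SE 0.05, interval -0.17 to 0.06, edgeR adjusted p = 0.936). Gabrd lies at chr4:155384980-155398112.

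The balance of Gabra6 to Gabrd separated the genotypes, narrowly. The log2 ratio came to 0.23, 0.57 and 0.78 in deficient mice 1, 2 and 3, against 0.22, 0.05 and 0.21 in wild-type mice 1, 2 and 3. The ranges did not overlap, though deficient mouse 1 was barely above wild-type mouse 1. The means were 0.53 ± 0.28 in deficient and 0.16 ± 0.10 in wild-type mice (SD, n = 3 each), a difference of 0.37 (exact permutation test, two-sided p = 0.10, the smallest that 3 against 3 mice allow). Without deficient mouse 3 this difference was 0.24.

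**Figure D4:**
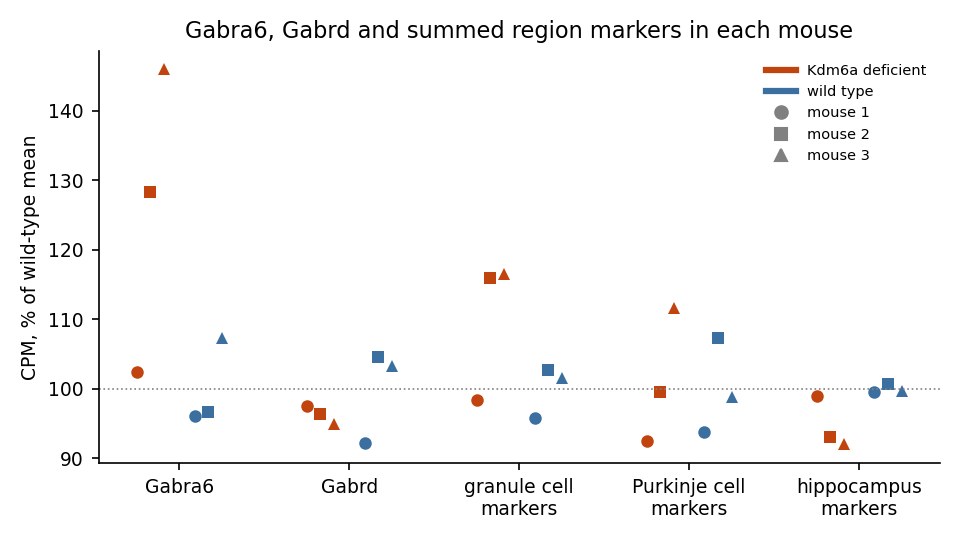
Points give the CPM of each mouse as a percentage of the wild-type mean, for Gabra6, Gabrd and the summed markers of cerebellar granule cells, Purkinje cells and hippocampus. Gabra6 and the granule cell markers are highest in deficient mice 2 and 3 (117 and 133 CPM for Gabra6), while Gabrd stays between 75.1 and 85.1 CPM in all 6 mice.

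Of the 6 GABA-A genes together, counted per kb of exon, Gabra6 and Gabra3 took the largest shares. This order depends on the length. In CPM not divided by length, Gabra4 averaged 132 in deficient and 133 in wild-type mice. Gabra6 averaged 114 in deficient and 90.9 in wild-type mice. Gabra6 took 24.8%, 30.8% and 32.7% in the deficient mice and 25.3%, 24.3% and 26.2% in the wild-type mice, where deficient mouse 1 fell inside the wild-type range. Gabra3 took 26.4%, 25.3% and 23.7% in deficient and 27.4%, 26.2% and 25.3% in wild-type mice. Shares of 1 sum depend on each other, so a larger Gabra6 share lowers the rest.

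Of the 6 shares, those of Gabrd and Gabra5 did not overlap between the genotypes. For CPM this held in 11.2% of all genes tested, and no such rate was taken for shares. In CPM, Gabrd of the deficient mice lay inside the wild-type range. Gabrd took 18.3%, 17.9% and 16.5% in the deficient mice, against 18.9%, 20.4% and 19.6% in the wild-type mice, a difference of -2.02 percentage points. Gabra5 took 8.71%, 8.25% and 8.26% in the deficient mice, against 7.90%, 7.44% and 7.98% in the wild-type mice, a difference of 0.632 points. Each had an exact permutation p of 0.10 (two-sided, the smallest possible with 3 against 3 mice), or 0.30 with Benjamini-Hochberg adjustment over the 6 shares tested. For Gabra6 the difference was 4.16 points (exact p = 0.30), for Gabra3 -1.21 (0.40), for Gabra4 -1.19 (0.30) and for Gabra2 -0.371 (0.60). The Gabra6 difference was 6.49 points without deficient mouse 1 and 2.52 without deficient mouse 3.

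Summed by class, Gabra4 and Gabra6, with the arginine codon, took 39.9%, 44.7% and 45.6% in the deficient mice and 41.5%, 39.1% and 40.7% in the wild-type mice. Gabra2, Gabra3 and Gabra5, with the histidine codon, took 41.8%, 37.4% and 37.9% in the deficient mice and 39.6%, 40.5% and 39.7% in the wild-type mice. Deficient mice 2 and 3 were higher for the arginine class and lower for the histidine class than all wild-type mice, and deficient mouse 1 went the other way for the histidine class. With Gabra2 left out of the sum, a choice made after its values were seen, the Gabrd difference was -2.22 points and the Gabra5 difference 0.640.

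**Figure D5:**
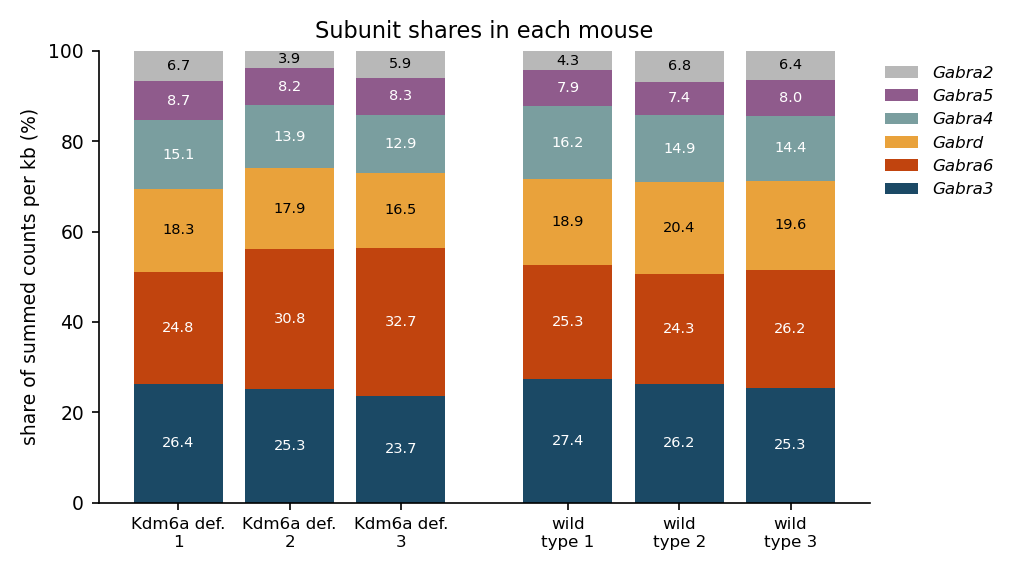
Bars split the summed counts per kb of the 6 GABA-A genes into shares for each mouse, in percent. The Gabra6 share reaches 30.8% and 32.7% in deficient mice 2 and 3 and lies between 24.3% and 26.2% in wild-type mice.

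Gabbr1, the GABA-binding GABA-B subunit, was steady across the 6 brains. It had 876, 843 and 876 CPM in the deficient mice and 901, 892 and 871 CPM in the wild-type mice, and the groups overlapped. Its log2 fold change was -0.04 (SE 0.04, interval -0.12 to 0.05, edgeR adjusted p = 0.938). It lies at chr17:37045966-37075067.

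Gabbr2, the G protein-coupling subunit, had a lower mean in the deficient mice, a difference that did not pass the test. Its level was 414, 412 and 434 CPM in the deficient mice and 455, 434 and 438 CPM in the wild-type mice. Deficient mouse 3 and wild-type mouse 2 were nearly equal (433.88 and 433.93 CPM), so the lack of overlap rests on less than 1 CPM. Its log2 fold change was -0.08 (SE 0.04, interval -0.17 to 0.02, edgeR adjusted p = 0.887). The gene lies at chr4:46662305-46991873.

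The ratio of the GABA-B subunits to each other differed between the genotypes by about the spread between mice. The log2 ratio of Gabbr1 to Gabbr2, in CPM not divided by length, was 1.08, 1.03 and 1.01 in the deficient mice and 0.98, 1.04 and 0.99 in the wild-type mice. The difference was 0.04 (exact permutation test, two-sided p = 0.30).

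Of 56 further genes of GABA signalling in 5 lists, 52 were tested and 0 passed 5% FDR by edgeR, DESeq2 or limma-voom. At an unadjusted p under 0.05 these tools gave 7, 4 and 7 of them. The share over all genes, taken for edgeR only, was 5.86%. Of the other GABA-A subunit genes, 10 of 13 were tested, with a log2 fold change above 0 in 7 and below 0 in 3 (median 0.04, 0 at an unadjusted p under 0.05). Among those with the smallest p were the gamma1 gene Gabrg1, with a log2 fold change of 0.11 (SE 0.06), and the gamma3 gene Gabrg3, with 0.06 (SE 0.06). Of 9 genes that make, carry or break down GABA, 7 were positive and 2 negative (median 0.04, 0 at an unadjusted p under 0.05). Gad1 and Gad2, the enzymes that make GABA, stood at 503 ± 34.7 and 341 ± 14.7 CPM in the deficient mice and 492 ± 16.4 and 331 ± 16.7 CPM in wild-type brains (SD, n = 3 each). Slc32a1, which loads GABA into vesicles, had a log2 fold change of 0.07 (SE 0.05). Abat, which breaks GABA down, had 0.04 (SE 0.04), and the carrier gene Slc6a12, at 2.24 CPM in the deficient mice and 1.80 CPM in wild-type brains, had 0.29 (SE 0.22).

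Of 15 tested scaffold and receptor partner genes 6 were positive and 9 negative, with a median of -0.0047 and 3 at an unadjusted p under 0.05. Trak2, a motor adaptor that also binds GABA-A receptors, had the smallest p in the 5 lists, with 285, 267 and 250 CPM in the deficient mice and 307, 299 and 293 CPM in the wild-type mice, without overlap (log2 fold change -0.16, SE 0.05, edgeR adjusted p = 0.603). Gabarapl2, a trafficking protein, stood at 0.14 (SE 0.05, edgeR adjusted p = 0.771). Its relative Gabarap stood at 0.07 (SE 0.05), and Iqsec3, an exchange factor of inhibitory synapses, at -0.12 (SE 0.05).

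Partners of the GABA-B receptor were spread evenly, 6 positive and 6 negative of 12, with a median of 0.00077 and 2 at an unadjusted p under 0.05. Kcnj9, a subunit of the potassium channel that GABA-B receptors open, had 168, 163 and 162 CPM in the deficient mice and 186, 171 and 175 CPM in the wild-type mice, without overlap (log2 fold change -0.11, SE 0.05, edgeR adjusted p = 0.812). Its partner Kcnj6 stood at -0.17 (SE 0.08, edgeR adjusted p = 0.856). Ajap1, a membrane protein that binds Gabbr1, stood at -0.11 (SE 0.05), with 46.0, 46.7 and 47.5 CPM in the deficient mice and 49.6, 51.4 and 50.6 CPM in the wild-type mice. Of 6 chloride carrier, channel and carbonic anhydrase genes 4 were positive and 2 negative (median 0.04, 2 at an unadjusted p under 0.05). The chloride channel gene Clcn2 stood at 0.13 (SE 0.05, edgeR adjusted p = 0.798), and Slc12a5, the carrier that keeps neuronal chloride low, at -0.09 (SE 0.04, edgeR adjusted p = 0.841).

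Markers of cells that make GABA overlapped between the genotypes. The 12 inhibitory neuron markers, led by Gad1, Gad2 and Cck and all detected, summed to 1603 to 1740 CPM in the deficient mice and 1627 to 1701 CPM in the wild-type mice. Striatal projection neuron markers summed to 918 to 1039 CPM in the deficient mice and 968 to 1016 CPM in the wild-type mice, and thalamus markers to 640 to 704 CPM in the deficient mice and 677 to 690 CPM in the wild-type mice. Blood cell markers summed to 63.6 to 86.3 CPM in the deficient mice and 52.5 to 67.0 CPM in the wild-type mice, all 7 with a positive log2 fold change. Cortical neuron markers summed to 1604, 1462 and 1409 CPM in the deficient mice and 1508, 1493 and 1446 CPM in the wild-type mice. The part of these cell types in the Gabra2 values was not tested.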

How the data were processed

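Total RNA of samples labelled only as brain went into Illumina TruSeq libraries, per the labels' protocols. The authors deposited whole-number raw counts per gene symbol, 1 column per mouse. The submitters' processing notes name GRCm38 and DESeq2, while no source used here gives the aligner, the counter or the strand setting. Beside the counts the authors deposited their DESeq2 comparison, per the file headers, with a mean signal in normalized counts, a log2 fold change (wild type over deficient), a test score and a p-value.

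The test was edgeR 4.0.16 quasi-likelihood in R 4.3.3 (robust, two-sided), with TMM scaling and the default filter. P-values were Benjamini-Hochberg adjusted over all 15030 genes, and the script was tested on simulated counts. Fold changes are deficient over wild type, with SE = |log2 fold change| / sqrt(F). CPM uses TMM-scaled library sizes, and log2 CPM a prior count of 2. Shares and ratios were tested with exact permutations over mice. Exon lengths, positions and coding sequences come from GENCODE M21 (GRCm38), aligned with MAFFT 7.526. BLAST 2.17.0 found no near copy of a member (95% identity over 200 bases) among other genes' transcripts. Among the rows, 27 have a 5-digit number as symbol (0.350% of counts) and were kept. Insyn1 and Insyn2a were found under older symbols.

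The members and lists were chosen with earlier results of these data known. Named genes are the members, cluster neighbours, up to 4 of each list by smallest p, up to 3 markers by level, and the 3 genes nearest to the most variable member; others are said to be named after their values were seen. Alternatives were RLE factors, other filters, DESeq2 1.42.0, limma-voom (limma 3.58.1), leaving out each mouse, a block for the mouse number and other lengths. Some genes counted in the lists are not reported by name here. Mouse numbers were not taken as pairs.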

Additional observations from a re-analysis of the deposited data

How the results depend on the processing

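The 7 calls over all genes became 25 with no filter on low counts, 20 with DESeq2 and 15 with the mouse number as a replicate block, and 3 to 17 when 1 mouse was left out. Dropping deficient mouse 1 gave 12 calls and dropping deficient mouse 3 gave 15. Dropping wild-type mouse 2 gave 3, and dropping wild-type mouse 3 gave 17. None of the 8 receptor genes passed 5% FDR in any alternative but one, Gabra6 without deficient mouse 1 (log2 fold change 0.45; adjusted p 0.0350, and up to 0.9999 without another mouse). With the block their smallest adjusted p was 0.213. Same-numbered mice correlated at -0.10, 0.21 and 0.10 in their deviations from the group means. For deficient mice 2 and 3 this was above the values with other-numbered wild-type mice (-0.27 and 0.12, and -0.0081 and -0.11). For deficient mouse 1 it was below them (-0.078 and 0.15). The labels name no litters, so the numbers were not read as pairs. The Gabra2 log2 fold change was -0.0029 with limma-voom and ran from -0.19 to 0.22 without 1 mouse, that of Gabra4 from -0.057 to 0.0085, and the Gabra2 share difference from -1.13 to 0.449 points; the cause was not tested. Every other receptor gene, share and ratio kept its direction in each alternative run, but several sizes moved by over 1.5 times without 1 mouse. The share difference ran from 2.52 to 6.49 points for Gabra6, from -1.85 to -0.500 for Gabra3 and from -1.78 to -0.646 for Gabra4. The log2 fold change ran from 0.018 to 0.044 for Gabra3, from -0.11 to -0.024 for Gabrd and from -0.052 to -0.021 for Gabbr1. The log2 ratio ran from 0.019 to 0.055 for Gabbr1 to Gabbr2, from 0.24 to 0.52 for Gabra6 to Gabrd and from 0.10 to 0.24 for Gabra6 to granule cell markers. With 3 mice a group, exact tests cannot go below p = 0.10. Each receptor gene had at least 594 counts in every library, the fewest being those of Gabra5.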

Other observations

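The pi and rho subunits, known mainly from outside the brain and from the retina, had few counts, and their genes are named here after their values were seen. For Gabrp the deficient mice gave 0, 0 and 1 counts and the wild-type mice 2, 1 and 1. Gabrr1 had 5, 4 and 6 counts in deficient and 8, 5 and 7 in wild-type mice, and Gabrr3 had 0 to 2 counts in each library. Counts of Gabrr2 reached 21, 23 and 14 in deficient and 15, 18 and 26 in wild-type mice. Gabrq, the theta subunit gene and cluster neighbour of Gabra3 on the X chromosome, had 10.5, 14.1 and 15.3 CPM in the deficient mice and 12.5, 13.6 and 12.3 CPM in the wild-type mice.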
